A study of Sus scrofa with 48 samples.

Results

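The genes described here are the adrenergic receptors ADRB1, ADRB3 and ADRA2A, the receptor kinases ADRBK1 and ADRBK2, the arrestins ARRB1 and ARRB2 and the phosphodiesterase PDE3B, measured in the perirenal fat of pigs. Members were taken as every array probe that carried one of these 8 names. Probes were found for 7 of the 8 genes, of 12148 named genes on the array, and no probe carried the name PDE3B. The names of these 7 genes stood on 16 probes of 60 bases with 15 distinct sequences.

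Catecholamines drive fat breakdown in adipocytes through the beta-adrenergic receptors, which couple to a stimulatory G protein and raise cyclic AMP, while alpha-2 receptors couple to an inhibitory G protein and lower it. Receptor kinases phosphorylate the receptor once an agonist is bound, and beta-arrestins then dock on it, uncouple it from its G protein and carry it into the cell. PDE3B, a phosphodiesterase activated by insulin in fat cells, degrades cyclic AMP and so restrains lipolysis. ADRBK1 and ADRBK2 are the older names of GRK2 and GRK3.

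The tissue came from 48 Large White barrows of 132 days of age, with 12 pigs in each of 4 groups. The pigs came from lines selected in opposite directions for residual feed intake (RFI), 24 from each. Low RFI pigs (RFIneg in the labels) ate less than predicted for their growth, and high RFI pigs (RFIpl) ate more. Within each line, pigs ate freely either a high-fat high-fiber diet (HF), in which oils and wheat straw took the place of part of the starch, or a starch-based diet low in fat and fiber (LF), so that fat and fiber changed together and cannot be told apart. Each pig was read on its own one-colour array, and the LF pigs served as the reference for diet and the high RFI pigs as the reference for line.

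Values are log2 Cy3 intensities minus the median of the array, so 0 is the median probe of that pig and a value sets pigs side by side for 1 probe but not 1 probe against another. The median raw intensity per array was between 115 and 178 against a local background of 23 to 33, and no array stood apart, with a median correlation to the other arrays of 0.979 to 0.989. Of 60305 probes, 40509 were well above background on every array of at least 1 group and were tested. A probe was called when its raw p was below 0.01, its fold above 1.1 and its adjusted p below 0.08, which are the thresholds of the study's methods. Diet changed 24.3% of the tested probes by this rule, 9.03% higher and 15.2% lower in HF pigs, and the lower share of these calls, 62.8%, went to 50.1% with arrays centred on their 75th percentile, to 48.1% with quantile normalization and to 14.96% with spike-in centring, which moved the median of all probes by 0.11. Line changed 3.56% of the probes, and the interaction of diet and line 0%. All 10 adipocyte markers passed the filter, with a mean log2 value of 8.12 to 8.85 per pig, and the kidney markers SLC12A1 and SLC34A1 did not pass the filter.

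Of the 16 member probes, 11 passed the filter, all of them on all 48 arrays, and they read 6 genes: ADRB1, ADRA2A, ADRBK1, ADRBK2, ARRB1 and ARRB2. None of the 16 was saturated on any array. The 5 that did not pass were the 3 probes of ADRB3, 1 of 2 for ADRA2A and 1 of 3 for ARRB2. The sequences that matter most for reading these genes follow, in the 5′ to 3′ direction, as the scanner files give them. The first pair are the probes of ADRB1, which overlap by 54 bases and differ at 5 of them, marked in capitals. The next is the sequence that sits on the array under 2 names for ADRB3. The last is an ARRB2 probe that starts at base 1095 of its transcript model.

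ADRB1 probe A_72_P440476: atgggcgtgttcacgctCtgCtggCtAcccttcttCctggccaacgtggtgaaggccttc

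ADRB1 probe O8687: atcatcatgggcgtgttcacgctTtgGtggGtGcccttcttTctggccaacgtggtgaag

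ADRB3 probes O14670 and A_72_P413603: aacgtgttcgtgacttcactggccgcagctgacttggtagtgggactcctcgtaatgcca

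ARRB2 probe A_72_P316373: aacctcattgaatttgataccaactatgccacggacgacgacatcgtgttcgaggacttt

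Counted from the 5′ end of A_72_P440476, with its base first and that of O8687 last, the differences were C18T, C21G, C25G, A27G and C36T. A_72_P440476 starts at base 957 of the pig ADRB1 transcript record. No genome build is named in the files, so positions are given along the transcripts only.

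Diet changed 3 of the 6 tested genes on at least 1 probe. By the brightest probe of each gene, ADRBK2 was called lower and ARRB2 higher, while ADRB1 was not called. Of all named genes, 19.1% were called lower and 6.20% higher by that rule. ADRBK2, a kinase that tags agonist-bound receptors, was lower on the HF diet by both of its probes. ARRB2, a beta-arrestin, was higher by both probes that passed the filter. ADRB1, the beta-1 receptor, was higher by 1 of 2 probes. In all, 5 of 11 probes were called, 3 higher against a background of 9.03% and 2 lower against 15.2%. ADRBK2 and ARRB2 also stand in gene lists that the study drew from these same pigs, so their direction is not independent evidence. ADRA2A, ADRBK1 and ARRB1 were not called.

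**Figure D1:**
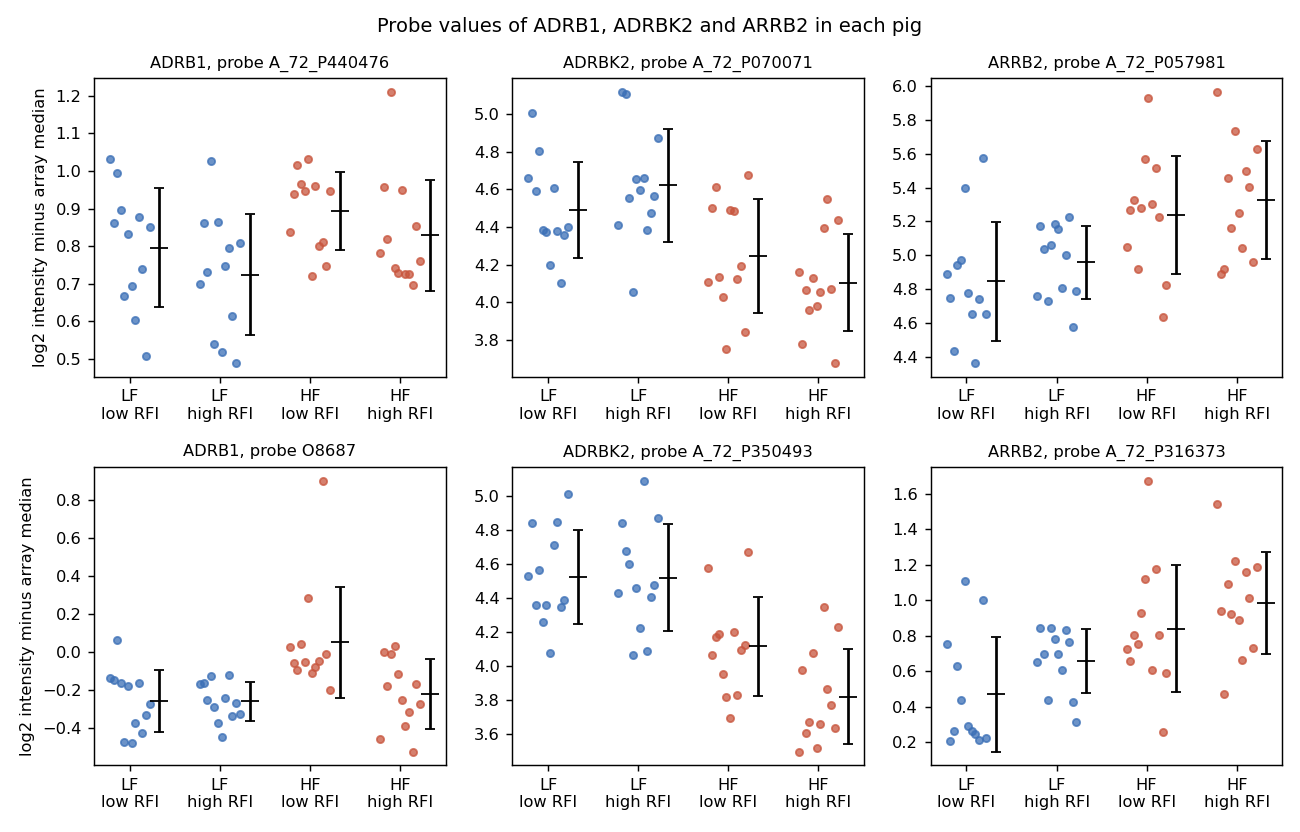
Values of the ADRB1, ADRBK2 and ARRB2 probes in each of the 48 pigs, as log2 intensity minus the array median, for the 4 groups of 12 (blue LF, red HF), with the group mean and SD in black. On both ADRBK2 probes 22 of the 24 red points sit under the mean of the blue ones, and 1 HF pig of the low RFI line stood at 0.90 on ADRB1 probe O8687.

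Among the receptors, ADRB1 carries the response to noradrenaline and adrenaline in many fat depots. On probe O8687, LF pigs lay between -0.48 and 0.06 in the low RFI line, with a median of -0.23, and between -0.45 and -0.12 in the high RFI line, with a median of -0.26. HF pigs of the high RFI line ran from -0.53 to 0.03 with a median of -0.22, and those of the low RFI line from -0.20 to 0.90 with a median of -0.05. The HF low RFI group was thus the high one, the other groups lay together, and all 4 overlapped. The HF mean of -0.09 ± 0.277 was above the LF mean of -0.26 ± 0.134 (SD, n = 24 each), a difference of 0.17 (SE 0.057, 1.13-fold, limma adjusted p = 0.0179), and 19 of the 24 HF values exceeded the LF mean. A single pig, HF low RFI replicate 10, held the highest value, and without it the difference was 0.13 (raw p = 0.00374, limma), which fell under the fold threshold.

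The other ADRB1 probe, A_72_P440476, moved the same way by less. Its HF values lay between 0.70 and 1.21 and its LF values between 0.49 and 1.03. The means were 0.86 ± 0.130 in HF and 0.76 ± 0.160 in LF pigs (SD, n = 24 each), and the difference of 0.10 (SE 0.043) did not pass, with a limma raw p of 0.0227 and an adjusted p of 0.0673. Group medians were 0.94 and 0.77 in HF pigs of the low and high RFI line and 0.84 and 0.74 in LF pigs. Deviations from the group means on the 2 ADRB1 probes correlated across the 48 pigs at r = 0.34 (permutation p = 0.0175, adjusted 0.0262) and rho = 0.48 (permutation p = 0.00059, adjusted 0.00106). With the 2 farthest pigs left out r was 0.31, and within slides of 8 pigs it ran from -0.16 to 0.66, so it did not hold on every slide.

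ADRB3, the beta receptor best known from rodent and brown fat, did not pass the filter. Its 3 probes were well above background on 4, 18 and 10 of the 48 arrays and on all arrays of no group. Group medians were between -1.90 and -1.77 on O14670, between -1.61 and -1.54 on A_72_P413603 and between -1.58 and -1.47 on A_72_P177831. O14670 and A_72_P413603 share all 60 bases, yet they differed by 0.23 on average (SD 0.266 over 48 arrays), and their deviations gave no positive relation (r = -0.09, permutation p = 0.552, adjusted 0.552; rho = -0.10, permutation p = 0.512, adjusted 0.522; r = -0.06 without the 2 farthest pigs and -0.71 to 0.11 within slides). Differences of that size on these probes are within the spread of 1 sequence read at 2 spots. ADRB3 was thus above background on part of the arrays but not reliably enough for a test of the groups.

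ADRA2A, the alpha-2A receptor that lowers cyclic AMP, was read by A_72_P177701. Values ran from -0.27 to 0.41 in HF and from -0.17 to 0.51 in LF pigs, and the diets overlapped over nearly the whole range. The mean was 0.07 ± 0.178 in HF and 0.13 ± 0.156 in LF pigs (SD, n = 24 each), a difference of -0.06 with a 95% interval from -0.16 to 0.04 (limma adjusted p = 0.368). With spike-in centring the sign turned, to 0.05. The second ADRA2A probe, O11018, was above background on 0 of 48 arrays. Its sequence is the reverse complement of the coding strand, unlike that of A_72_P177701, so its signal is not taken as a level of ADRA2A.

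Of the kinases, ADRBK2 had the largest difference of the 11 probes. On A_72_P350493, LF pigs ran from 4.08 to 5.01 with a median of 4.46 in the low RFI line and from 4.07 to 5.09 with a median of 4.47 in the high RFI line. HF pigs ran from 3.70 to 4.67 with a median of 4.11 and from 3.50 to 4.35 with a median of 3.72 in the low and high RFI line. HF pigs of both lines sat low, and 14 of 24 lay below every LF pig. The mean was 3.97 ± 0.317 in HF and 4.52 ± 0.290 in LF pigs (SD, n = 24 each), a difference of -0.55 (SE 0.082, 1.47-fold, limma adjusted p = 2.95e-06).

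The other ADRBK2 probe, A_72_P070071, starts at base 3254 of its transcript record. LF pigs ran from 4.10 to 5.01 with a median of 4.39 in the low RFI line and from 4.06 to 5.12 with a median of 4.58 in the high RFI line. HF pigs ran from 3.75 to 4.68 with a median of 4.16 and from 3.68 to 4.55 with a median of 4.07. The groups overlapped more than on the first probe, with 8 of 24 HF pigs below every LF pig. The difference was -0.38 (SE 0.079, 1.30-fold, limma adjusted p = 0.000305), from a mean of 4.17 ± 0.284 in HF and 4.56 ± 0.281 in LF pigs (SD, n = 24 each). The probes followed each other across pigs at r = 0.51 (permutation p = 0.00021, adjusted 0.000473) and rho = 0.51 (permutation p = 0.00028, adjusted 0.000743), with r = 0.47 after the 2 farthest pigs were left out and 0.20 to 0.79 within slides.

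ADRBK1, the more widely studied kinase of the pair, was not called. Probe A_72_P126236 ran from 4.43 to 5.03 in HF and from 4.41 to 4.98 in LF pigs, a difference of 0.02 with a 95% interval from -0.07 to 0.10 (limma adjusted p = 0.819). Probe O13180 ran from 0.70 to 1.24 and from 0.69 to 1.26, a difference of -0.07 with an interval from -0.15 to 0.01 (limma adjusted p = 0.200). Both intervals lay above those of the ADRBK2 probes, which ended at -0.39 and -0.22, although no test of the difference between the kinases was run. The ADRBK1 probes correlated at r = 0.33 (permutation p = 0.0207, adjusted 0.0266) and rho = 0.32 (permutation p = 0.0249, adjusted 0.0320), with r = 0.24 without the 2 farthest pigs and 0.04 to 0.68 within slides.

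Of the arrestins, ARRB2 rose on the HF diet. On A_72_P057981, LF pigs ran from 4.36 to 5.57 with a median of 4.76 in the low RFI line and from 4.58 to 5.23 with a median of 5.02 in the high RFI line. HF pigs ran from 4.63 to 5.93 with a median of 5.27 and from 4.89 to 5.96 with a median of 5.33. The HF pigs of both lines were the high ones but overlapped the LF pigs over most of their range, and 4 of 24 lay above every LF pig. The mean was 5.28 ± 0.344 in HF and 4.90 ± 0.291 in LF pigs (SD, n = 24 each), a difference of 0.38 (SE 0.091, 1.30-fold, limma adjusted p = 0.00134).

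The ARRB2 probe printed above, A_72_P316373, gave nearly the same difference. LF pigs ran from 0.21 to 1.11 with a median of 0.28 in the low RFI line and from 0.32 to 0.85 with a median of 0.70 in the high RFI line. HF pigs ran from 0.26 to 1.67 with a median of 0.78 and from 0.47 to 1.54 with a median of 0.98. LF low RFI pigs were the lowest group, and 22 of the 24 HF values exceeded the LF mean. The means of 0.91 ± 0.325 and 0.56 ± 0.274 (SD, n = 24 each) differed by 0.35 (SE 0.083, 1.27-fold, limma adjusted p = 0.00136). The 2 probes correlated at r = 0.88 and rho = 0.85 (permutation p = 1e-05 each, the smallest these permutations can give, adjusted 4.5e-05), with r = 0.86 without the 2 farthest pigs and 0.76 to 0.96 within slides. The third ARRB2 probe, O12180, was above background on 24 of 48 arrays and was not tested. Its sequence is the reverse complement of the coding strand, unlike that of A_72_P316373, so its signal is not taken as a level of ARRB2.

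ARRB1, the other beta-arrestin, was not called. On A_72_P179271, HF pigs ran from -0.80 to 0.13 and LF pigs from -0.81 to -0.32, a difference of 0.12 (SE 0.050) with a raw p of 0.0159 and an adjusted p of 0.0517 (limma), so that the raw threshold was missed, as was the fold threshold at 1.09-fold. With HF high RFI replicate 5, 7 or 11 left out the probe was called, at up to 0.15, and with arrays centred on their 75th percentile it was called too, also at 0.15. Here 13 of 24 HF pigs lay above every LF pig. Probe O12091, which shares at least 16 bases with a probe of the retinal arrestin SAG, differed by 0.01 with a 95% interval from -0.09 to 0.12 (limma adjusted p = 0.856). The probes correlated at r = 0.55 (permutation p = 5e-05, adjusted 0.00015) and rho = 0.51 (permutation p = 0.00033, adjusted 0.000743), with r = 0.55 without the 2 farthest pigs and -0.07 to 0.93 within slides, so not on every slide.

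**Figure D2:**
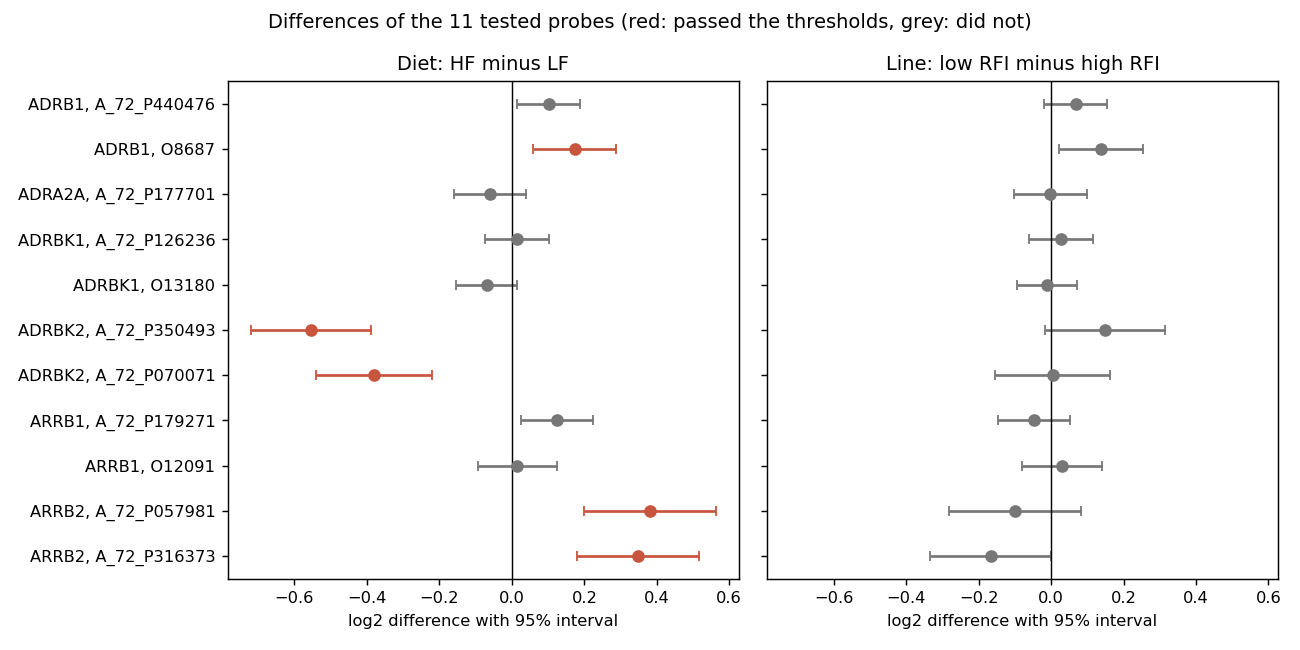
Log2 differences of the 11 tested probes with 95% intervals, for diet (left, HF minus LF) and line (right, low RFI minus high RFI), red where the thresholds were passed and grey where they were not. The ADRBK2 probes lie at -0.55 and -0.38 and the ARRB2 probes at 0.38 and 0.35 on the diet side, and no probe was called on the line side.

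Each of the 6 slides held 8 arrays, 2 of every group, so diet could be compared within slides. The HF minus LF difference was below 0 on 6 of 6 slides for both ADRBK2 probes, from -0.64 to -0.45 on A_72_P350493 and from -0.66 to -0.10 on A_72_P070071. It was above 0 on 6 of 6 slides for both ARRB2 probes, from 0.11 to 0.58 on A_72_P057981 and from 0.20 to 0.52 on A_72_P316373. For ADRB1 probe O8687 it was above 0 on 6 of 6 slides too, from 0.03 to 0.37. The sign therefore did not turn on any slide for a called probe, while the size of A_72_P070071 varied most. By scan day, that probe differed by -0.54 on the first and by -0.22 on the second, against -0.57 and -0.54 for A_72_P350493.

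**Figure D3:**
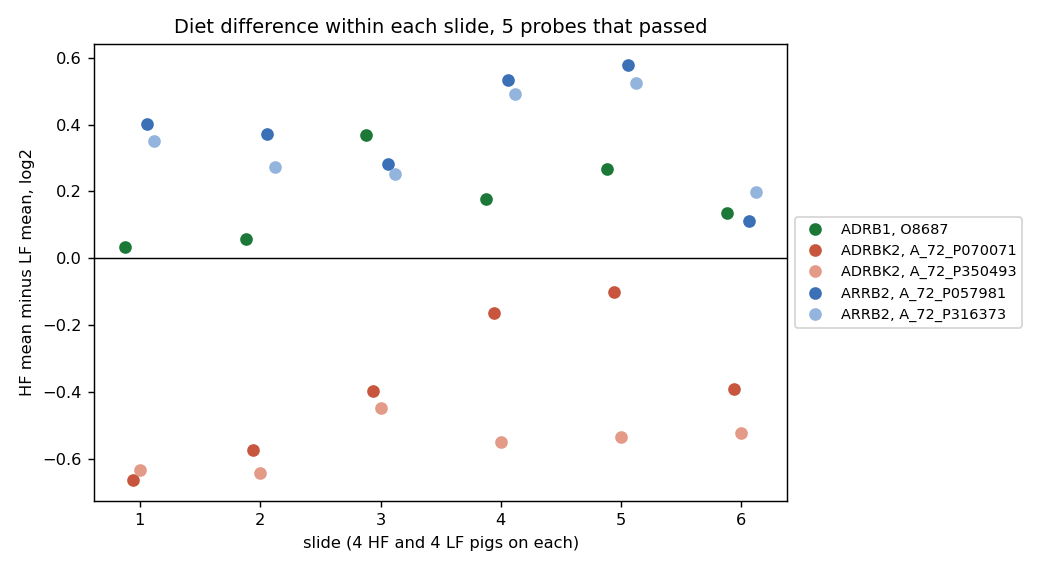
Difference of the HF and LF means (log2, y axis) on each of the 6 slides (x axis, 4 HF and 4 LF pigs each) for the 5 called probes. All ADRBK2 points lie below 0 and all ARRB2 and ADRB1 points above it, with the widest spread for ADRBK2 probe A_72_P070071, from -0.66 to -0.10.

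No member was called for residual feed intake. Line called 0 of 11 probes, against 3.56% of all probes tested. A raw p below 0.05 (limma) was found for 5241 of the 40509 tested probes and for 1 of the 11. This was ADRB1 probe O8687, with a mean of -0.10 ± 0.281 in the low RFI line against -0.24 ± 0.146 in the other (SD, n = 24 each) and a difference of 0.14 (SE 0.057, limma adjusted p = 0.243). Differences of the others ran from -0.17 for ARRB2 probe A_72_P316373 (95% interval -0.33 to 0.00081, limma adjusted p = 0.389) to 0.15 for ADRBK2 probe A_72_P350493 (interval -0.02 to 0.32, limma adjusted p = 0.463). The methods' two-way analysis of variance called 0 of the 11 as well.

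The interaction asks whether the lines answered the diet differently. It called 0 of 11 probes by limma and 0 by the two-way analysis of variance, against 0% of all probes tested. A raw p below 0.05 (limma) was found for 898 of the 40509 tested probes and for 1 of the 11, again ADRB1 probe O8687. Within the low RFI line 4 of 11 probes were called for diet, against a background of 13.3%, and within the high RFI line 4 of 11, against 15.1%. ADRBK2 probe A_72_P350493 fell by 0.41 in the low RFI line (SE 0.116, limma adjusted p = 0.0200) and by 0.70 in the high RFI line (SE 0.116, limma adjusted p = 0.000151). ADRBK2 probe A_72_P070071 differed by -0.24 in the low RFI line (SE 0.112, limma adjusted p = 0.150, not called) and by -0.52 in the high RFI line (SE 0.112, limma adjusted p = 0.00204). These gaps between lines had interaction raw p values of 0.0840 and 0.0915 (limma) and adjusted p values of 0.99996, so they are not shown to differ. ARRB2 rose by 0.39 and 0.37 on A_72_P057981 and by 0.37 and 0.33 on A_72_P316373 in the low and high RFI line. ADRB1 probe O8687 rose by 0.31 in the low RFI line (SE 0.081, limma adjusted p = 0.0120) and differed by 0.04 in the high RFI line (SE 0.081, limma adjusted p = 0.790).

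Since whole tissue was measured, fewer cells of a type and less RNA per cell cannot be told apart in any of these values. Macrophage markers moved with the diet too. Of the 12 listed, 9 were tested and 7 were called, all higher in HF pigs, against 6.20% of named genes. Differences of the tested genes ran from 0.31 to 0.81. Among them were the scavenger receptors CD163 (0.70) and MRC1 (0.66) and the complement subunits C1QA (0.80), C1QB (0.76) and C1QC (0.81). The second C1QB probe differed by 0.02 and was not called, and CD68 did not pass the filter. The mean of the 9 genes per pig ran from 2.09 to 4.60 in HF and from 1.89 to 4.23 in LF pigs. ARRB2 probe A_72_P057981 followed that mean within groups at r = 0.88 and rho = 0.85 (permutation p = 1e-05 each, adjusted 4.5e-05), with r = 0.85 without the 2 farthest pigs, 0.60 to 0.96 within slides, and 0.90 and 0.84 within the low and high RFI line. The part of the macrophage markers in the ARRB2 difference was not tested.

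**Figure D4:**
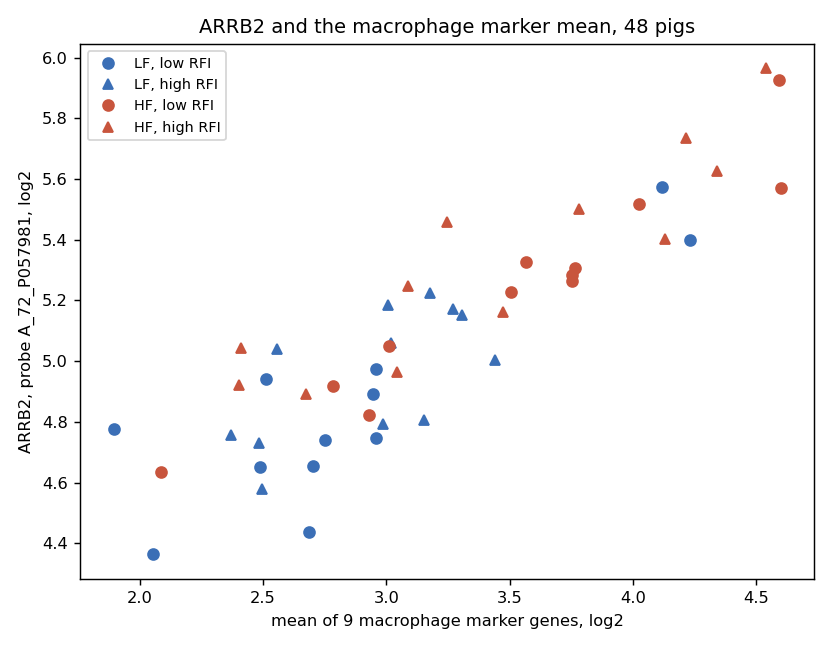
ARRB2 (probe A_72_P057981, y axis, log2) against the mean of 9 macrophage marker genes (x axis, log2) in the 48 pigs, coloured by diet and shaped by line. In both diets ARRB2 was higher in pigs with a higher marker mean, with r = 0.88 for deviations from the group means. Whether the diets share 1 line was not tested.

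The other marker lists were described in the same way, beside 6.20% of named genes called higher and 19.1% lower by their brightest probes. In the T and NK cell list 2 of 8 tested genes were called higher, CD3G (0.34) and NKG7 (0.31), and in the endothelial list 1 of 7, CLDN5 (0.30). The other CD3G probe went the other way, at -0.16, and was not called. The 7 fibroblast genes were all above 0 on their brightest probes with 0 called, from 0.09 to 0.31, and 1 of 11 LUM probes was called higher. Of the 10 adipocyte genes, 3 fell, the hormone LEP by 0.94, the lipid droplet protein CIDEC by 0.24 and the transcription factor PPARG by 0.19, the last on 2 of its 4 probes, and the retinol carrier RBP4 rose by 0.24. The adipocyte mean per pig ran from 8.12 to 8.66 in HF and from 8.26 to 8.85 in LF pigs, beside the lower ADRBK2 values, and its part in them was not tested. Of 3 tested brown fat genes CIDEA fell by 0.42, while UCP1 carried no probe. No gene was called in the lists for neutrophils (4 tested), smooth muscle (4), mesothelium (2), the adrenal gland and sympathetic nerves (5), erythrocytes (2) or B and plasma cells (1). None of these marker lists had a gene called by line.

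Genes whose values followed a member most closely across the 48 arrays, as deviations from the group means over 9826 named genes, are a description only. For ARRB2 they were GMFG (r = 0.93), IL10 (0.92) and PIK3CG (0.92), and all 3 were also called higher on the HF diet, by 0.43, 0.40 and 0.39. For ADRBK2 they were C15ORF17 (0.62), RBM19 (0.61) and DYNLL2 (0.60), of which DYNLL2 fell by 0.22. The closest for ADRB1 were PKDREJ (0.69), which was called lower on the HF diet (-0.15) where ADRB1 was higher, DAK (0.68) and C8ORF55 (0.68), for ADRA2A ASB12 (0.71), SPATA5L1 (0.69) and TMEM79 (0.69), for ADRBK1 GBA2 (0.70), C1ORF35 (0.69) and MYST2 (0.65), and for ARRB1 LEPREL4 (0.54), SFXN3 (0.52) and LSP1 (0.51). ARRB2 thus had closer companions than any other member. ARRB2 and ADRBK2, which moved in opposite directions with diet, were also compared within groups, where ADRBK2 probe A_72_P350493 gave r = -0.43 with ARRB2 (permutation p = 0.00227, adjusted 0.00409; rho = -0.43, permutation p = 0.00222, adjusted 0.00333), -0.39 without the 2 farthest pigs and -0.65 to 0.43 within slides. Probe A_72_P070071 gave r = 0.12 (permutation p = 0.422, adjusted 0.474; rho = 0.09, permutation p = 0.522, adjusted 0.522), 0.11 without the 2 farthest pigs and -0.10 to 0.53 within slides, so the relation rests on 1 of the 2 ADRBK2 probes. In all, 9 relations across pigs were computed, and the adjusted values cover these 9.

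The wider pathway showed few diet calls. Of 85 listed genes outside the members, 68 had a probe and 62 were tested by their brightest probe, of which 4 were higher, against 6.20% of all 9826 named genes, and 3 lower, against 19.1%. The median difference was 1.65e-05 for the list and -0.05 for all named genes. Line called 0 of the 62, against 3.32% of named genes.

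Upstream, none of the 4 tested adrenoceptors outside the members and none of the 3 tested kinases GRK4, GRK5 and GRK6 was called. Among 10 tested G protein subunits GNG2, a gamma subunit, rose by 0.23 (SE 0.063, limma adjusted p = 0.00479). GNAS, the stimulatory alpha subunit, differed by -0.08 on the brightest of its 17 tested probes, and 1 of the 17 was called higher, while 1 of 3 probes of the inhibitory subunit GNAI3 was called lower. None of the 5 tested adenylyl cyclases was called, with differences from -0.36 to 0.04.

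Downstream, protein kinase A had 1 of 7 tested genes called, the regulatory subunit PRKAR2A, which fell by 0.19 (SE 0.049, limma adjusted p = 0.00388) on 1 of its 2 probes but was not called with quantile normalization or spike-in centring. Among 5 tested phosphodiesterases PDE4B, which degrades cyclic AMP, rose by 0.28 (SE 0.081, limma adjusted p = 0.00835) on 1 of its 5 probes, while PDE3A and PDE4A were not called. Of 8 tested genes of fat mobilisation 2 fell, the monoglyceride lipase MGLL by 0.37 (SE 0.090, limma adjusted p = 0.00156) and CIDEC by 0.24 on all 3 of its probes, the latter not called with spike-in centring. The lipases LIPE and PNPLA2 and the droplet coat PLIN1 were not called on their brightest probes, at -0.14, 0.02 and -0.12, while 1 of the 4 LIPE probes and 1 of the 8 probes of the fatty acid carrier FABP4 were called lower.

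Among 7 other receptors that act on lipolysis 2 rose. HCAR1, the lactate receptor, listed on the array as GPR81, had the largest difference of the pathway list, 1.73 ± 0.424 in HF against 1.096 ± 0.525 in LF pigs (SD, n = 24 each), or 0.64 (SE 0.131, limma adjusted p = 0.000284), and 22 of the 24 HF values exceeded the LF mean. NPR1, the natriuretic peptide receptor that makes cyclic GMP, rose by 0.23 (SE 0.059, limma adjusted p = 0.00311) on 1 of its 3 probes, and 22 of the 24 HF values were again the higher ones. None of the 7 tested genes of the cyclic AMP response and none of the 6 of the insulin arm upstream of PDE3B was called on its brightest probe, while 1 of the 2 NR4A2 probes was called higher.

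**Figure D5:**
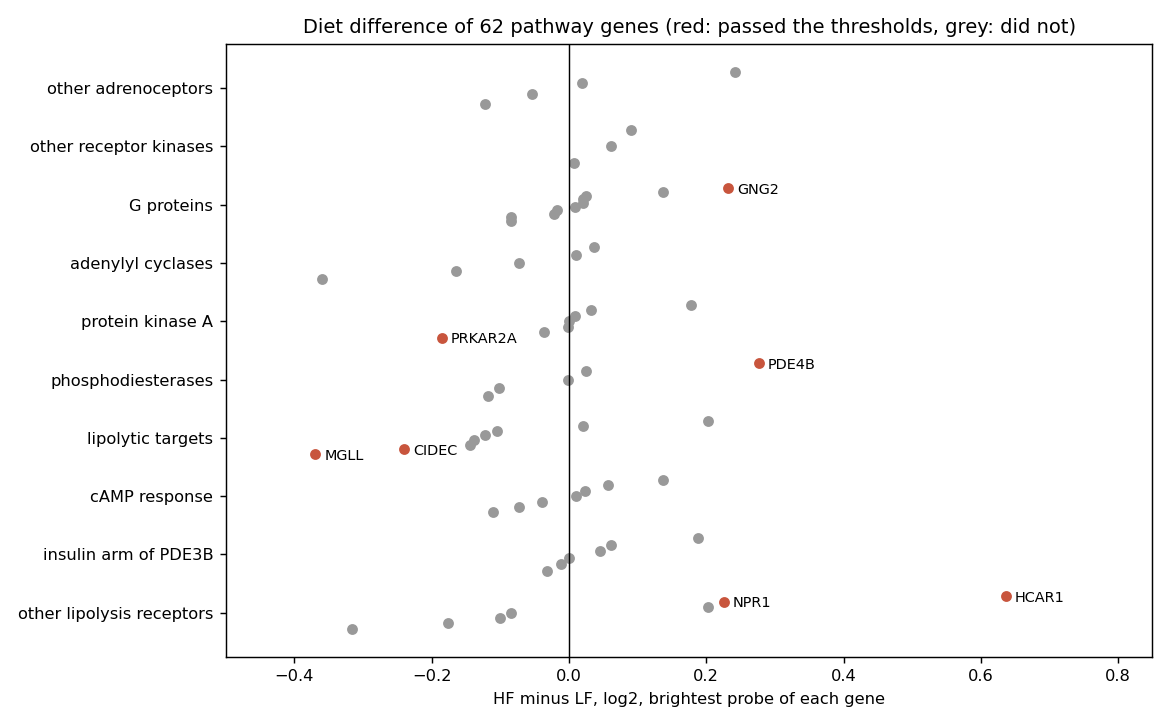
Diet difference (x axis, HF minus LF, log2) of the 62 tested pathway genes by role (y axis), 1 point per gene by its brightest probe, red where the thresholds were passed and grey where they were not. The 7 called genes are spread over 5 of the 10 roles, with HCAR1 at 0.64 and MGLL at -0.37 as the ends.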

How the data were processed

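Total RNA of perirenal adipose tissue was labelled with Cy3 and hybridised by the authors to 48 custom porcine arrays, scanned and read with Agilent Feature Extraction 10.7.3.1. The deposited scanner files hold spot intensity values, and the authors' own table of log2 values (filtered, median-centred, R 2.10.0) was deposited for 38142 probes. The sorted values of that table matched the scanner values of the same probes, but its row names did not go with its values, so the log2 values used here were recomputed from the deposited intensity of each probe (gMedianSignal) minus the median of the array, and the table gave only an alternative filter. Named probes came from the file's gene names, and 389 more from RefSeq accessions. No column of per-sample values was left out for want of a sample (0 columns).

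Diet, line and their interaction were fitted with limma 3.58.1 in R 4.3.3 over 40509 probes, with Benjamini-Hochberg adjustment over all of them, after a test on simulated data. The p-values measure the spread between pigs. Precision is limited by how many arrays there are. Genes were named by a rule: all members with every probe, pathway genes called by a test, and the 3 named genes most alike in deviations from group means. Relations across pigs used 100000 permutations (numpy 2.4.6). The members, pathway and marker lists were chosen with earlier results of these data known. Alternatives covered centring, background correction, filters, model terms and thresholds. Leaving out each pig in turn was added after seeing the data.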

Additional observations from a re-analysis of the deposited data

Results flagged for a closer look

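ADRB1 probe O8687 had a larger diet difference in the low RFI line, with a raw interaction p below 0.05 (limma). The diet difference in low RFI pigs minus that in high RFI pigs was 0.27 on the log2 scale (SE 0.114, limma raw p = 0.0220, adjusted p = 0.99996). It did not pass the correction over all probes, so the lines are not shown to differ. Of the 40509 tested probes, 898 had a raw interaction p below 0.05 (limma). The HF low RFI group had a mean of 0.05 ± 0.293 and the other 3 groups means of -0.22 ± 0.183, -0.26 ± 0.165 and -0.26 ± 0.102 (SD, n = 12 each). Without the HF low RFI pig at 0.90 the difference was 0.19 (limma raw p = 0.0341). The overlapping ADRB1 probe A_72_P440476 gave -0.01 (SE 0.086, limma raw p = 0.927).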

How the results depend on the processing

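The diet calls on the members kept their count within 1.5 times of 5 in 18 of the 19 alternatives over all 48 pigs or 1 line, the exception being a fold threshold of 1.5, which left 0 of the 11 probes. With spike-in centring, ADRB1 probe A_72_P440476 (0.21) and ARRB1 probe A_72_P179271 (0.23) were called as well. ARRB1 probe A_72_P179271 was also called with 75th percentile centring (0.15), for 6 member probes in all. The line and interaction counts were 0 under all alternatives run. Pathway calls went from 7 to 12 with spike-in centring, 11 of them higher, and to 1 with the fold threshold of 1.5. With each pig left out in turn the diet count ran from 4 to 6, and the line and interaction counts from 0 to 0. Signs turned only where probes were not called. For diet these were ADRA2A (0.0467) and ADRBK1 probe O13180 (0.0375) with spike-in centring, ADRBK1 probe A_72_P126236 with scanner background subtraction (-0.0036) and as the mean of its probes (-0.0273), and ARRB1 probe O12091 without single pigs (-0.0067 to 0.0394). For line they were ADRA2A with array weights (0.0014), ADRBK1 probe O13180 with normexp (0.0019) and with background subtraction (0.0125), and ADRBK2 probe A_72_P070071 with quantile normalization (-0.0036) and spike-in centring (-0.0204). The cause was not tested. Same-numbered arrays of different groups, which shared a slide, correlated above 0.1 in 39 of 72 pairs, down to -0.24. Their mean correlation was 0.11, against -0.01 for other numbers. Since not every pair was alike, the numbers were not taken as pairs in the main fit. With a block for the number, diet called 10697 and line 1939 of all tested probes, against 9830 and 1444 without it. The replicate block gave 5 diet, 0 line and 0 interaction calls on the members and 10 pathway calls. It also called MGLL for line (limma adjusted p = 0.0758), which no other setting of the 14 did. Dim signal limits ADRB3, whose probes were well above background on at most 18 of 48 arrays.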
